A study of Mus musculus with 13 samples.

Results

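The genes described here are 8 enzymes of the pentose phosphate pathway and of the other main cytosolic routes to NADPH: G6pdx, Pgls, Pgd, Rpia, Tkt, Taldo1, Me1 and Idh1. They were picked by name from what the 3 deposited comparison tables show, and each was looked up by its gene name. In all, 3 of the 8 were found, G6pdx, Pgd and Taldo1, all higher in the HLM006474 table. Because that table's own fold changes led to the choice, those values are given as a description, with no test. The study measured RNA by sequencing in 13 samples of primary astrocyte cultures.

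Of these samples, 3 were given HLM006474, 3 the RUNX1 inhibitor, 3 SB431542 and 4 vehicle, each for 24 h. All cultures were wild-type C57BL/6, from retinas and optic nerves of pups at postnatal day 1 to 3, in DMEM/F12 with 10% fetal bovine serum. HLM006474 blocks the E2F family, transcription factors of the replication genes. The compound called the RUNX1 inhibitor, whose code name stands with it in the plots, blocks RUNX1 with its partner CBFB, and SB431542 blocks the kinases of TGF-beta type I receptors. The labels give neither doses nor the animals or platings behind each sample, so the authors' errors may measure technical spread. Each table holds the genes past the authors' limits, which are a change of about 1.5-fold either way and an adjusted p below 0.05. It gives a mean normalised count over the libraries, a log2 fold change and its standard error. No table or label states the direction of the fold change, and it was taken as compound over vehicle, so every "higher" and "lower" rests on that reading. Values per sample and the depth of each library were not analysed here. Fabp7 and Kcnj10, genes of the astrocyte lineage, had mean counts of 18965 and 23892.5 per the authors' deposited tables. Lyz2, a gene of macrophages and microglia, had a mean count of 24249 per the authors' deposited tables and so transcripts of such cells were present too. A change in the number of cells of a type and a change in RNA per cell cannot be told apart in such samples.

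The pentose phosphate pathway branches off glycolysis at glucose 6-phosphate. Its oxidative arm makes NADPH, the electron donor for glutathione and thioredoxin reductases and for lipid and deoxyribonucleotide synthesis, and ends at ribulose 5-phosphate. Its non-oxidative arm links these pentoses to ribose for nucleotides and back to glycolytic intermediates. Malic enzyme and isocitrate dehydrogenase of the cytosol make NADPH from malate and isocitrate. Astrocytes are known for an active pentose phosphate pathway and for supplying glutathione precursors to neurons, and several of these enzymes are known targets of the transcription factor NRF2.

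In the oxidative arm, HLM006474 raised the genes of both NADPH-making steps by about 1.7 to 1.8 times relative to vehicle. G6pdx, glucose-6-phosphate dehydrogenase, commits glucose 6-phosphate to the pathway in its rate-limiting step. Its log2 fold change was 0.80 ± 0.060 (standard error, 3 HLM006474 and 4 vehicle samples) per the authors' deposited table, a 1.74-fold rise with a 95% interval of 1.61 to 1.89. Its mean normalised count was 3143 per the authors' deposited table. Pgd, 6-phosphogluconate dehydrogenase, makes the other NADPH of this arm. Its log2 fold change was 0.83 ± 0.069 at a mean count of 5205 per the authors' deposited table, a 1.78-fold rise with a 95% interval of 1.62 to 1.95. Pgls, the lactonase that works between these steps, was not in the HLM006474 table.

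In the non-oxidative arm, 1 of 3 genes was listed. Taldo1, transaldolase, moves a dihydroxyacetone unit between sugar phosphates. Its log2 fold change under HLM006474 was 0.79 ± 0.066 at a mean count of 4465 per the authors' deposited table, a 1.73-fold rise with a 95% interval of 1.58 to 1.89. Tkt, transketolase, and Rpia, which converts ribulose 5-phosphate to ribose 5-phosphate, were not in the table. Nor were Me1, cytosolic malic enzyme, and Idh1, cytosolic isocitrate dehydrogenase. For these 5 genes no fold change was analysed here: a smaller change, a wider error or too few reads would each keep a gene out of the table.

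**Figure D1:**
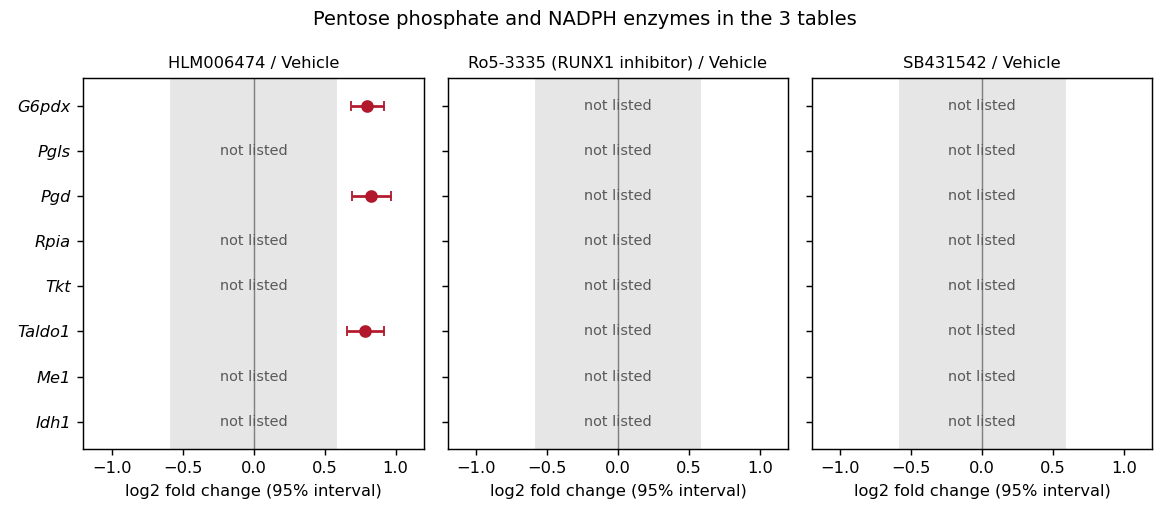
Log2 fold change of the 8 enzymes (rows) under HLM006474, the RUNX1 inhibitor and SB431542, each over vehicle, with points for the authors' values and bars for 95% intervals. The shaded band is the range of fold changes below each table's limit, and "not listed" marks a gene with no value in that table, wherever it is written. G6pdx, Pgd and Taldo1 sit at 0.80, 0.83 and 0.79 under HLM006474, with intervals above the band.

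The genes were measured in the same libraries, so they are not replicates of one another, and the 5 enzymes outside the table have no value to set beside them. Taldo1, the lowest of the 3, stood at 0.79, while the smallest absolute changes listed in the authors' deposited HLM006474 table were -0.58 ± 0.17 for Psmc3ip, a recombination cofactor gene, and -0.58 ± 0.073 for the cadherin gene Cdh4.

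HLM006474 raised 216 of the 15169 genes tested, 1.42%, and lowered 640, 4.22%. The 3 of 8 enzymes stand beside that 1.42%, and since the choice of enzymes used this contrast nothing is read from the count. Within the 216 higher rows of the authors' deposited table the 3 genes were of middling size and measured with small error. By fold change Pgd ranked 102, G6pdx 109 and Taldo1 117. Of the 216 rows 99 had smaller rises than all 3 genes and 101 had larger ones, and their median log2 fold change was 0.80. By the authors' p-value the order was different, with G6pdx at rank 17, Pgd at rank 24 and Taldo1 at rank 25 of the 216. Their standard errors of 0.060 to 0.069 compare with a median of 0.18 over those rows.

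**Figure D2:**
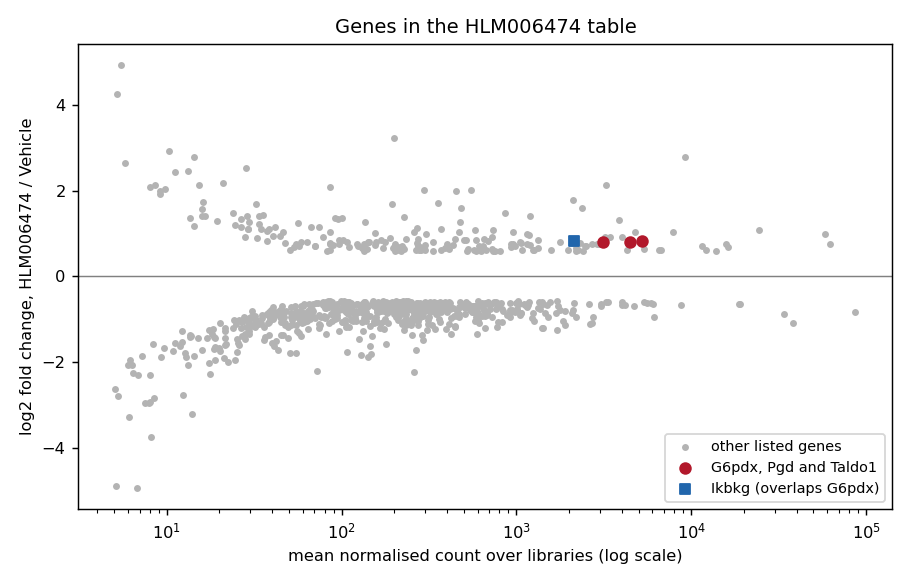
Each point is a gene of the HLM006474 table, by its mean normalised count over libraries (log scale) and its log2 fold change over vehicle; of 856 rows, 855 lie within the axis and 1 lies below it. G6pdx, Pgd and Taldo1 have mean counts of 3143 to 5205 and lie in a narrow band at 0.79 to 0.83, beside Ikbkg at 0.81.

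Mean counts grow with transcript length, so levels were set side by side per kilobase. Taldo1 had the highest of the 3 levels, with 2057 mean counts per kilobase of annotated exon, against 1021 for G6pdx and 807 for Pgd. Divided by the longest coding transcript instead, the levels were 3278 for Taldo1, 2347 for Pgd and 1185 for G6pdx. The order of G6pdx and Pgd thus turned with the length used, because the exons annotated for Pgd add up to 6447 bases and its longest coding transcript to 2218.

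The 3 genes lie on different chromosomes. In GENCODE M21 on GRCm38, G6pdx spans chrX:74409483-74429194 on the minus strand, Pgd chr4:149149991-149166771 on the minus strand and Taldo1 chr7:141392199-141402968 on the plus strand. All of G6pdx lies within Ikbkg, which runs on the opposite strand and encodes the regulatory subunit of the kinase that activates NF-kB. Of the 75-base windows in G6pdx transcripts, 8.96% also occur in Ikbkg transcripts, on either strand. In the authors' deposited HLM006474 table Ikbkg stood at 0.81 ± 0.11 with a mean count of 2140, close to the 0.80 of G6pdx, and was in neither of the other tables. Whether the libraries keep strand is not given in the sources used here, so reads of G6pdx and Ikbkg may not have been told apart, and the part of one in the value of the other was not tested. Pgd shared no such window with another gene and overlaps none. Taldo1 shared 0.731% of its windows with 1 gene, Gm17823, and overlaps none, so for Pgd and Taldo1 this overlap is absent.

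Sequence upstream of the start sites is shown because NRF2 with its small MAF partner is known to bind the antioxidant response element. The core TGACNNNGC was looked for on both strands in the 250 bases before each start site in RefSeq (GRCm38.p6), where all 8 genes were found with 11 start sites. G6pdx held a match and the other 7 enzymes held none, while 10.2% of 32544 upstream windows of all genes held at least 1. The match in G6pdx lies at positions -57 to -49 from the RefSeq start, reads TGACNNNGC on the strand opposite to the gene, and is in capitals in the line for G6pdx. It falls inside an exon of a longer G6pdx transcript of GENCODE, so 29 bases are printed. For Pgd, which has a pair of RefSeq start sites, the bases before the outer one are given as far as the first annotated exon. The AP-1 site TGANTCA, which can overlap this core, was found in no window of the 8 enzymes and in 6.73% of all windows. The sequences are those at chrX:74428919-74428947 (minus strand), chr4:149166772-149166955 (minus strand) and chr7:141391910-141392159 (plus strand), written 5′ to 3′ along the gene.
G6pdx: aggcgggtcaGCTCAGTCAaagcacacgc
Pgd: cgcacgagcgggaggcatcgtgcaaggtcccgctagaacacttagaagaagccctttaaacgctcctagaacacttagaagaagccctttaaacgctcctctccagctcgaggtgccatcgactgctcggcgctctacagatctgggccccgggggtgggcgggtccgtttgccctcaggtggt
Taldo1: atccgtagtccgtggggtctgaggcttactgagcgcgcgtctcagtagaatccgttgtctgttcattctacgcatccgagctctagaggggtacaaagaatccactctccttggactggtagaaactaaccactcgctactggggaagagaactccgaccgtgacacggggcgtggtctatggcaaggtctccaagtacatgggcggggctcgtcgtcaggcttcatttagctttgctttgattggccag
A match to these letters describes the sequence and does not show that a factor binds there, and a window without one says nothing of sites elsewhere in the gene.

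No enzyme of the 8 was in the RUNX1 inhibitor table, which lists 82 genes higher, 0.605% of 13561 tested, and 315 lower, 2.32%. None was in the SB431542 table either, with 347 genes higher, 2.29% of 15169 tested, and 401 lower, 2.64%. Unadjusted p-values of genes outside the tables were not analysed here. For G6pdx, Pgd and Taldo1 a limit follows from the precision of the same genes under HLM006474. Standard errors of genes shared by 2 tables were nearly equal, with a median ratio of 0.999 between HLM006474 and the RUNX1 inhibitor over 211 rows and of 1.00 between HLM006474 and SB431542 over 161 rows. With its own standard error, a change at the fold limit would be 8.41 to 9.61 times the error of each of the 3 genes. The p limit corresponds to 2.58 times in the RUNX1 inhibitor table and 2.57 times in the SB431542 table. An estimated change past the fold limit would thus have been listed, and in both comparisons the estimate for each of the 3 genes lay within about 1.5-fold of vehicle in either direction, if it was among the genes tested there. The 3 comparisons share their vehicle samples, and the difference between compounds was not tested. Of the 216 higher HLM006474 rows 148 were likewise in no other table.

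The genes most like the 3 enzymes were sought among genes listed for HLM006474 and in neither other table, with a standard error no larger than that of Pgd. Of these 41 genes 24 were higher. Nearest to the 3 genes' median were Entpd5, a nucleoside diphosphatase of the endoplasmic reticulum, at 0.78 ± 0.061 and Dhrs7, a short-chain dehydrogenase, at 0.77 ± 0.069 per the authors' deposited table. The metallothionein gene Mt1 stood at 0.76 ± 0.067 and the imine deaminase gene Rida at 0.75 ± 0.068 per the authors' deposited table. The fifth was Slc2a1, the glucose transporter GLUT1, at 0.75 ± 0.065 per the authors' deposited table. Likeness here rests on 1 comparison and on absence from the others.

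Around the 8 enzymes, further genes were looked up by list. These lists were chosen with earlier results of these data known, so all their counts are descriptions. Of 14 further pentose phosphate genes 0 were in any table. Among them were H6pd, which starts the oxidative arm in the endoplasmic reticulum, Rpe, which interconverts pentose phosphates, and Prps1, which activates ribose for nucleotides. Of all genes tested 1.42% were higher and 4.22% lower under HLM006474. The shares were 0.605% and 2.32% under the RUNX1 inhibitor and 2.29% and 2.64% under SB431542. At such shares a list of 14 may hold no listed gene, so nothing is read from the 0. Of 13 other NADPH-making enzymes and NAD kinases HLM006474 listed Nadk2, higher, and Me3, lower, which is 7.69% in each direction beside 1.42% higher and 4.22% lower of all genes tested. Nadk2, the mitochondrial NAD kinase that makes NADP, appeared in 2 rows of the authors' deposited HLM006474 table, at 0.59 ± 0.038 with a mean count of 2205 and at 1.12 ± 0.26 with a mean count of 268. The row with the lower count was also in the authors' deposited RUNX1 inhibitor table, at 1.14 ± 0.26. Which transcript or locus each row stands for is not given in the file. Me3, mitochondrial malic enzyme, stood at -0.60 ± 0.12 under HLM006474 per the authors' deposited table. The RUNX1 inhibitor also listed Mthfd1l, at -0.72 ± 0.11 per the authors' deposited table. Its listed genes were thus 7.69% of the list in each direction, beside 0.605% higher and 2.32% lower of all genes tested. Mthfd1l is a formyltetrahydrofolate synthetase of mitochondria that lacks a dehydrogenase and so makes no NADPH itself, although it is on this list. SB431542 listed Mthfd2, a mitochondrial methylenetetrahydrofolate dehydrogenase, at 0.70 ± 0.11 per the authors' deposited table. That is 7.69% of the list higher, beside 2.29% of all genes tested, and none lower. Whether Mthfd2 makes NADPH in these cells was not tested.

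Of 16 genes that spend NADPH, directly or indirectly, on thiols, quinones and bile pigments, 6 were higher under HLM006474 (37.5%, beside 1.42% of all genes tested). None was lower, and the median for those listed, Srxn1 among them, was 1.15 on the log2 scale. Srxn1, which restores oxidised peroxiredoxins with ATP and a thiol and so draws on NADPH only indirectly, and Nqo1, a quinone reductase, stood at 2.12 ± 0.10 and 1.99 ± 0.13 per the authors' deposited table. Blvrb, a biliverdin and flavin reductase, and Txnrd1, cytosolic thioredoxin reductase, stood at 1.28 ± 0.13 and 1.03 ± 0.057 per the authors' deposited table. Ptgr1 and Cbr3, reductases of reactive carbonyls, stood at 0.87 ± 0.12 and 0.61 ± 0.12 per the authors' deposited table. Gsr, glutathione reductase, was not in any table. SB431542 listed 2 of the 16 as higher (12.5%, beside 2.29% of all genes tested), Blvra at 0.81 ± 0.095 and Blvrb at 0.74 ± 0.13 per the authors' deposited table, and the RUNX1 inhibitor listed 0.

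Of 16 glutathione and thioredoxin genes 5 (31.2%) were higher under HLM006474, beside 1.42% of all genes tested, and none lower. Gclm and Gclc, the subunits of the enzyme for the first step of glutathione synthesis, stood at 1.31 ± 0.078 and 0.92 ± 0.049 per the authors' deposited table. The cystine transporter gene Slc7a11 stood at 1.48 ± 0.23 under HLM006474 and at 0.80 ± 0.23 under SB431542 per the authors' deposited tables. The export pump genes Abcc4 and Abcc1 stood at 0.98 ± 0.095 and 0.69 ± 0.078 under HLM006474 per the authors' deposited table. SB431542 also listed Chac1, which degrades glutathione, at 0.63 ± 0.24 per the authors' deposited table, so 2 of the 16 (12.5%) were higher there, beside 2.29% of all genes tested. On the list of 8 NRF2 regulators HLM006474 listed 1 gene (12.5%) as higher, beside 1.42% of all genes tested, and none lower. It was Sqstm1, the adaptor p62 that binds KEAP1, at 0.62 ± 0.060 per the authors' deposited table. Neither Nfe2l2 nor Keap1 was in any table.

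**Figure D3:**
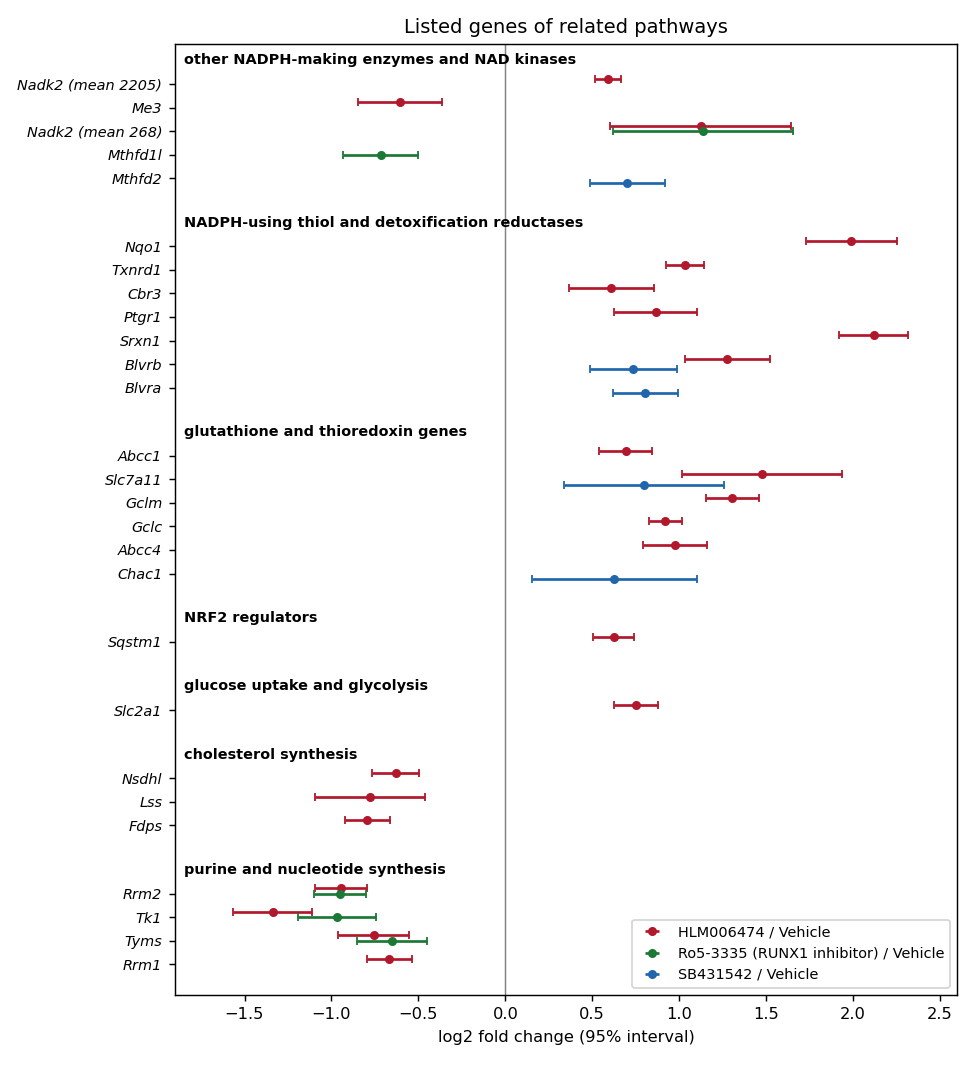
Log2 fold change over vehicle, with 95% intervals, of every listed gene on 7 related lists, coloured by compound. Under HLM006474 the listed reductase and glutathione genes lie between 0.61 and 2.12, and the listed cholesterol and nucleotide genes lie between -1.34 and -0.63.

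Of other routes that use NADPH or share its carbon, some had no gene in any table and others had a few. HLM006474 listed 0 of 13 fatty acid synthesis genes, 0 of 10 NADPH oxidase genes and 0 of 16 citrate and malate enzyme genes. The other tables listed none of them either. The background for HLM006474 was 1.42% of all genes tested for rises and 4.22% for falls. It was 0.605% and 2.32% for the RUNX1 inhibitor, and 2.29% and 2.64% for SB431542. At such shares, lists of 10 to 16 genes may hold no listed gene, so nothing is read from these counts of 0. Of 17 cholesterol synthesis genes 3 (17.6%) were lower under HLM006474, beside 4.22% of all genes tested. They were Fdps, farnesyl diphosphate synthase, at -0.79 ± 0.065, Lss, lanosterol synthase, at -0.78 ± 0.16, and Nsdhl, a sterol dehydrogenase, at -0.63 ± 0.069 per the authors' deposited table. Of 18 purine and nucleotide synthesis genes considered here 4 (22.2%) were lower under HLM006474, beside the same 4.22%, and 3 (16.7%) under the RUNX1 inhibitor, beside 2.32% of the genes tested there. The subunits of ribonucleotide reductase, Rrm2 and Rrm1, stood at -0.94 ± 0.077 and -0.67 ± 0.067 under HLM006474 per the authors' deposited table. Thymidine kinase Tk1 stood at -1.34 ± 0.12 and thymidylate synthase Tyms at -0.76 ± 0.10 under HLM006474 per the authors' deposited table. Under the RUNX1 inhibitor the values were -0.95 ± 0.077 for Rrm2, -0.97 ± 0.11 for Tk1 and -0.65 ± 0.10 for Tyms per the authors' deposited table. Of 22 genes of glucose uptake and glycolysis HLM006474 listed Slc2a1 (4.55%), higher, beside 1.42% higher and 4.22% lower of all genes tested. The RUNX1 inhibitor listed 0, beside 0.605% higher and 2.32% lower, and SB431542 listed 0, beside 2.29% and 2.64%. Nothing is read from counts this small.

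**Figure D4:**
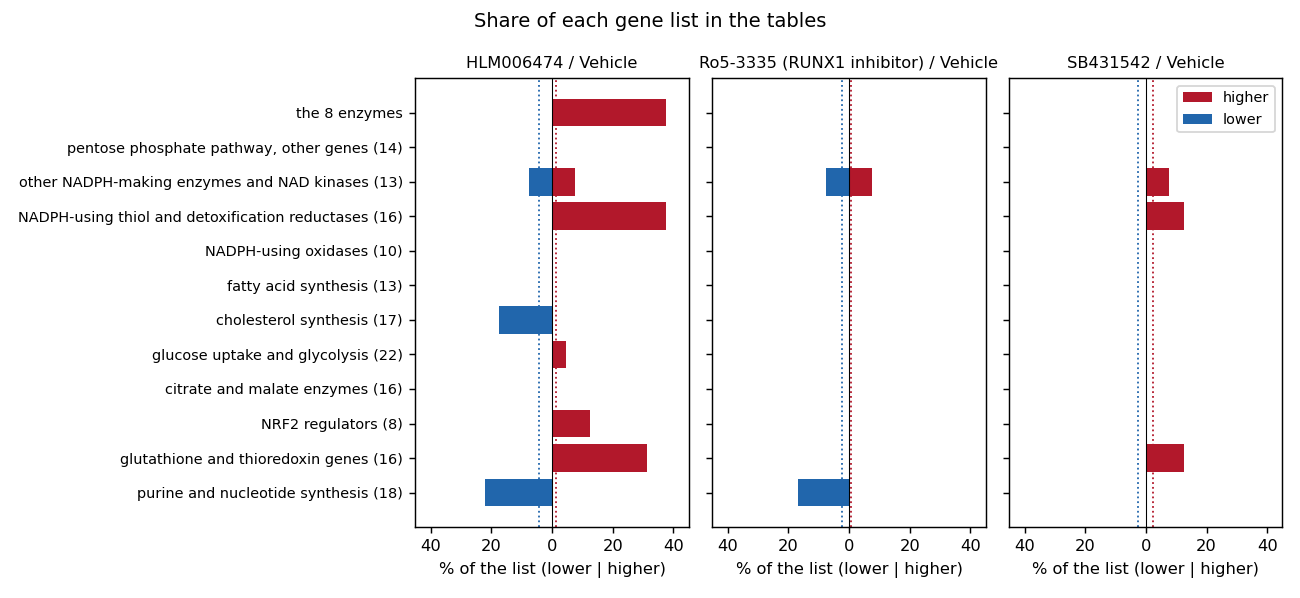
Share of each gene list in the 3 tables, with genes higher than vehicle to the right and lower genes to the left of 0; the number of genes is in brackets and dotted lines mark the share of all genes tested in each direction. Under HLM006474 the 8 enzymes, chosen from this contrast, and the 16 reductases each have 37.5% higher, beside 1.42% of all genes tested. The other lists were also chosen with earlier results of these data known, so nothing is read from their shares.

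Markers of other cells also moved under HLM006474. There, 4.22% of all genes tested were lower and 1.42% higher. Of 12 oligodendrocyte lineage markers 7 (58.3%) were lower and 0 higher, with a median of -1.05 for those listed. Mobp and Mag, at -1.80 ± 0.53 and -1.05 ± 0.40, had mean counts of only 54.7 and 88.4 per the authors' deposited table. At a mean count of at least 100, 5 of the 7 remained. Of 14 microglia and macrophage markers 3 (21.4%) were lower, among them Tmem119 at -1.08 ± 0.070, and Lyz2 was higher at 1.08 ± 0.18 per the authors' deposited table. Of 14 astrocyte markers Fabp7 (7.14%) was lower, at -0.64 ± 0.055 per the authors' deposited table, and of 8 neuron markers 0 were listed. Of 8 endothelial and mural markers 2 were lower, Cspg4, which is also among the 7 oligodendrocyte markers, and Rgs5, with a mean count of 87.8, and Des was higher, with a mean count of 21.0, per the authors' deposited table. SB431542 listed 8 of the 14 microglia and macrophage markers, 5 lower (35.7%, beside 2.64% of all genes tested) and 3 higher (21.4%, beside 2.29%). It also listed Cspg4, 1 of 12 oligodendrocyte lineage markers (8.33%) and 1 of 8 endothelial and mural markers (12.5%). Further, it listed Kcnj10, 1 of 14 astrocyte markers (7.14%), and Syn1, 1 of 8 neuron markers (12.5%). All of these were lower, beside 2.64% of all genes tested. The RUNX1 inhibitor listed 1 of 14 astrocyte markers (7.14%) and 1 of 8 neuron markers (12.5%), both lower, beside 2.32% of all genes tested there. The part of a change in cell types in the values of G6pdx, Pgd and Taldo1 was not tested.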

How the data were processed

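Results rest on 3 deposited tables, each comparing 1 compound with vehicle, with CASAVA 1.8, STAR 2.7, DESeq2 1.30.1 and the build GRCm38 named in the submitters' processing notes. No source used here gives strandedness, read counter or annotation. Per the file headers, the authors give a mean normalised count (a signal level over libraries), a log2 fold change and the standard error of that log2 value, a Wald score, and a p-value with its adjusted p-value. The table names give only the compound, and no header or label gives the direction, which was assumed to be compound over vehicle. Mean counts of shared rows were identical between tables.

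The 8 enzymes, the 11 related gene lists and the 5 marker lists were chosen with earlier results of these data known. Of the nucleotide synthesis list 1 gene is not reported here. All 8 enzymes are named, and any listed gene of those lists may be; the 5 most like genes and the 2 genes nearest the fold limit were taken by rule. No new test was made. The number tested is the smallest number that makes the ratio of p to adjusted p a whole rank within 0.02 (true for 81.4%, 80.3% and 79.9% of rows checked for HLM006474, the RUNX1 inhibitor and SB431542), a step tested on simulated data. Intervals are the log2 fold change ± the normal 95% range. Python 3.11.15 and pandas 2.3.3 were used.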

Additional observations from a re-analysis of the deposited data

How the results depend on the processing

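No paired analysis was possible because the tables hold fold changes and no values per sample; for the same reason no replicate could be left out. The 3 enzymes listed for HLM006474 were also counted at an adjusted p under 0.01 and at a mean count of at least 100, and 2 were counted without G6pdx, an alternative chosen after seeing the data. With an absolute log2 fold change of at least 1 the count was 0, by construction, since the rises are below 1. At that limit the other NADPH-making list had 1, 1 and 0 genes for HLM006474, the RUNX1 inhibitor and SB431542, the reductases 0 for SB431542, the glutathione list 2 for HLM006474 and 0 for SB431542, and the nucleotide list 1 for HLM006474 and 0 for the RUNX1 inhibitor. Cholesterol, glucose and NRF2 regulator lists had 0 for HLM006474. Astrocyte markers had 0 for each compound, neuron markers 0 for the RUNX1 inhibitor and SB431542, and microglia and macrophage markers 2 for HLM006474 and 5 for SB431542. Glutathione genes for SB431542 and endothelial and mural markers for HLM006474 numbered 1 each at an adjusted p under 0.01 and 1 each at a mean count of at least 100. Without genes on several lists, oligodendrocyte and endothelial markers for SB431542 numbered 0. In all, 70 counts over these 4 alternatives stayed within 1.5 times and 25 did not, leaving aside the lists and enzymes with 0 listed. Each alternative can only lower a count. A standard error 1.5 times as large left the limits for genes absent from the RUNX1 inhibitor and SB431542 tables at 0.58. Library depth is unknown, so what it limits was not assessed.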
